A study of Mus musculus with 16 samples.

Results

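Interleukin receptor subunits were read in mouse colonic mucosa as part of a real-time PCR panel of inflammation genes, the TaqMan OpenArray Mouse Inflammation Panel. They were chosen by name, as every assay whose gene symbol began with Il, a number and r, with 7 matches left out (Il1rl1, Il1rn, Il8rb, Il12rb2, Il17rb, Il22ra1 and Il22ra2). That gave 23 genes read by 25 assays, of 584 genes and 648 assays in all. The rule itself uses names and no measured value. By present naming 2 of the 23 are not interleukin receptors. Il8ra is the older symbol of Cxcr1, a chemokine receptor, and Il28ra that of Ifnlr1, the lambda interferon receptor chain.

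The 16 samples of colonic mucosa formed 4 groups of 4. Healthy mice received PBS, a buffer, both into the rectum and by mouth. The other groups all received dinitrobenzene sulfonic acid (DNBS) into the rectum, a hapten used to set off colitis. By mouth they were given PBS (the DNBS group), a treatment that the labels abbreviate CEC and do not spell out (DNBS_CEC), or Nissle (DNBS_Nissle), the name of a probiotic strain of Escherichia coli. Strain, sex and age of the mice, doses and times were not given in the sources used here. The series description speaks of pooling equal amounts of RNA from the mice, while each sample carries a number of its own. Whether a sample was 1 mouse or a pool is therefore unclear, and p-values measure only the spread between these samples. The questions were what DNBS did to the mucosa, and whether either oral treatment changed that.

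Interleukins act through receptors built from a few kinds of chain. A private chain usually binds the ligand, and a shared chain carries the signal inwards. IL-1 family receptors signal through Toll/IL-1 receptor (TIR) domains and the adaptor MyD88. Most others lack enzyme activity of their own and work through Janus kinases and STAT proteins. Some chains are decoys, which bind the ligand without passing the signal on in the usual way. In the gut these receptors sit on epithelium, stroma and immune cells, and several of their ligands are targets in the treatment of inflammatory bowel disease.

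Each level is given as −ΔCt, obtained by subtracting the threshold cycle (Ct) of a gene from the mean Ct of 13 reference genes. This is a log2 scale on which a higher number means more RNA, so that 1 unit is about a 2-fold change. A Ct of 28 or less counted as detected, and a higher Ct entered as 28. Levels were compared between samples and never between genes, since assays differ in efficiency. In bulk RNA, fewer cells of a type and less RNA per cell cannot be told apart. The samples yielded 528 to 564 detected assays each, and the mean Ct of the reference genes lay between 18.69 and 20.12. The reference gene Ywhaz was erratic, with Ct from 17.9 to 26.8, and Rplp2 varied more within groups (SD 1.01 cycles) than the other 11. The mean reference Ct with both genes exceeded that of the 11 by 0.34 to 1.06 cycles, depending on the sample. All levels of a sample carry that shift together, which bears on small differences below. Krt8, the only epithelial marker on the panel, was detected in all 16 samples (lowest Ct 14.6).

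Of the 23 genes, 19 were detected in at least 3 of 4 samples of every group and were tested in 7 comparisons. None of the 19 passed in any of them by limma, at an adjusted p of 0.05 over all genes tested. Against healthy mucosa most of them lay slightly higher under DNBS, with Il4ra, Il3ra, Il18rap and Il13ra2 furthest up, and Il27ra lower. Between the 3 DNBS groups there was no member with an unadjusted p under 0.05. With the 11 reference genes there was 1, Il13ra2 in DNBS_CEC against DNBS (limma unadjusted p = 0.035, adjusted p = 0.849). How many of all genes fell under 0.05 with that reference is not given here. The median half-width of the 95% confidence interval was 0.87 log2 units for a comparison of 2 groups and 0.71 for the 3 DNBS groups together against healthy. That limits the precision with 4 samples per group, and a missed threshold does not show that levels were alike.

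The broadest comparison set the mean of the 3 DNBS groups against healthy. Of the 19 members, 13 (68.4%) were higher and 6 lower, with a median difference of 0.27 log2 units. Over all 453 genes tested 51.4% were higher and the median was 0.01. By limma, 9 of the 453 genes passed the adjusted p (1.99%) and 0 of the 19 members. At an unadjusted p under 0.05 there were 3 of 19 members (15.8%), all higher, namely Il4ra, Il3ra and Il18rap, against 59 of 453 genes (13%). With the 11 reference genes Il18rap was no longer among them (limma unadjusted p = 0.073, adjusted p = 0.352). In 2 of 19 (10.5%), Il4ra and Il3ra, the healthy samples did not overlap with the 12 DNBS samples, against 8 of 453 genes (1.77%). With the 11 reference genes 12 of 19 were higher, with the global mean 12, and with quantile normalization 10 of the 16 that could be kept. The median of all genes then moved by −0.10, −0.12 and −0.13, and 42.6%, 40.8% and 40% of all genes were higher.

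**Figure D1:**
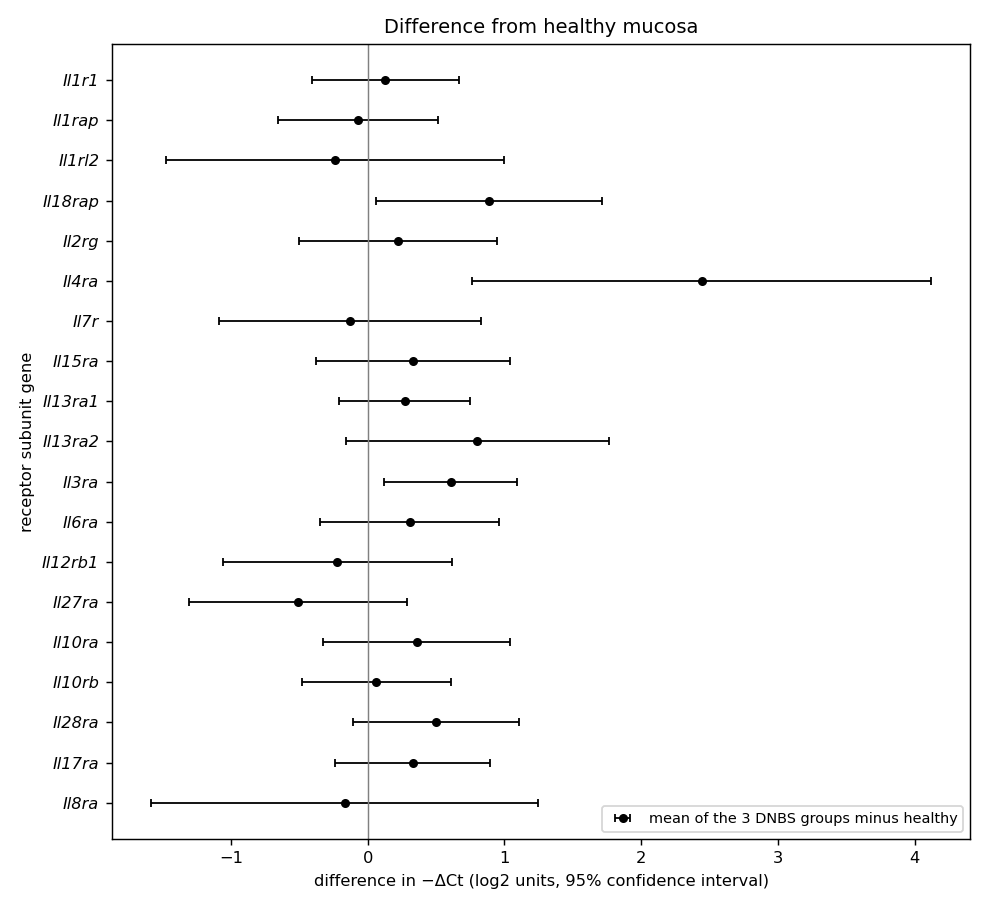
Difference in −ΔCt (log2 units, horizontal axis) between the mean of the 3 DNBS groups and healthy mucosa for the 19 receptor subunits tested, with 95% confidence intervals from limma. Points run from −0.51 (Il27ra) to 2.44 (Il4ra), and the intervals of Il4ra, Il3ra and Il18rap lie above 0 before adjustment for multiple testing.

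Il4ra encodes the IL-4 receptor alpha chain, which pairs with Il2rg for IL-4 and with Il13ra1 for IL-4 and IL-13. Healthy samples 4, 5 and 6 read −1.96, −1.95 and −2.03, while healthy sample 3 gave no amplification at all (Ct 40) and entered at −7.88. DNBS samples read −1.05, −0.83, −0.71 and −1.74, DNBS_CEC samples −0.53, −0.78, −1.15 and −1.84, and DNBS_Nissle samples −0.20, −0.72, −1.02 and −1.59. All 12 DNBS samples were above all healthy samples, also without the blank well, since the lowest DNBS sample stood at −1.84 and the highest healthy sample at −1.95. The size of the difference depended on that well. With it included, Il4ra was higher by 2.44 ± 0.79 log2 units (± SE, limma adjusted p = 0.141). With the well treated as missing, the difference was 0.97 ± 0.34, or 1.95-fold (limma adjusted p = 0.226). A failed well cannot be told from a lack of RNA, but every other sample amplified between Ct 19.2 and 21.6.

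Il3ra encodes the IL-3 receptor alpha chain, which signals together with the common beta chain Csf2rb. Healthy samples read −4.96, −5.23, −5.31 and −5.14. DNBS samples read −4.31, −4.29, −4.73 and −4.44, DNBS_CEC samples −4.59, −4.05, −4.39 and −4.96, and DNBS_Nissle samples −4.80, −4.94, −4.23 and −4.94. The DNBS samples all lay above the healthy ones, although the nearest pair, healthy sample 3 and DNBS_CEC sample 8, both round to −4.96. With the 11 reference genes, Gapdh alone or the global mean as reference the groups touched, and Il4ra alone stayed apart. The difference was 0.61 ± 0.23 log2 units, or 1.52-fold (limma adjusted p = 0.244). It ran from 0.55 to 0.67 with single samples left out.

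Il18rap encodes the accessory chain of the IL-18 receptor. Healthy samples read −7.74, −7.88, −7.44 and −8.18. DNBS samples read −7.52, −5.83, −6.95 and −7.53, and DNBS_CEC samples −7.53, −5.87, −7.87 and −7.92. In each of these groups 1 sample stood far above the healthy range. DNBS sample 4 (−6.95) also lay above that range, and the others lay within it. DNBS_Nissle samples read −5.97, −6.41, −6.43 and −7.20, all above the healthy ones. Over the 3 DNBS groups the difference was 0.89 ± 0.39 (limma adjusted p = 0.321).

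Il13ra2 encodes the receptor that binds IL-13 tightly and is best known as a decoy. Healthy samples read −7.25, −6.98, −7.67 and −7.83, and DNBS samples −6.35, −5.18, −5.97 and −6.76. These groups did not overlap. DNBS_CEC samples read −6.22, −7.62, −6.73 and −7.79, and DNBS_Nissle samples −6.30, −8.59, −5.71 and −6.29. Here 2 of 4 DNBS_CEC samples and 1 of 4 DNBS_Nissle samples fell within or below the healthy range. Over the 3 DNBS groups the difference was 0.80 ± 0.45 (limma adjusted p = 0.417).

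Il28ra, the ligand-binding chain for lambda interferons, read −5.04, −5.45, −4.77 and −5.12 in healthy samples and −4.08, −4.96, −3.84 and −5.37 under DNBS. DNBS_CEC samples read −4.31, −4.32, −4.00 and −4.81, and DNBS_Nissle samples −4.52, −5.09, −4.74 and −5.09. Of the 12 DNBS samples 7 were above the healthy range and 5 within it, with a difference of 0.50 ± 0.29 (limma adjusted p = 0.419). Its 2 assays gave 0.35 and 0.65 for this difference, and correlated at r = 0.43 over the 16 samples.

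Il27ra, the IL-27 receptor chain that pairs with Il6st, was the member furthest down. Healthy samples read −6.72, −6.47, −5.80 and −6.61, and DNBS samples −5.99, −7.38, −6.72 and −6.28. DNBS_CEC samples read −8.73 (Ct 28.3, not detected), −6.59, −7.09 and −6.82, and DNBS_Nissle samples −6.83, −7.50, −6.28 and −6.70. All groups overlapped, and the difference over the 3 DNBS groups was −0.51 ± 0.38 (limma adjusted p = 0.586). With the undetected sample treated as missing it was −0.35 ± 0.31 (limma adjusted p = 0.688).

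**Figure D2:**
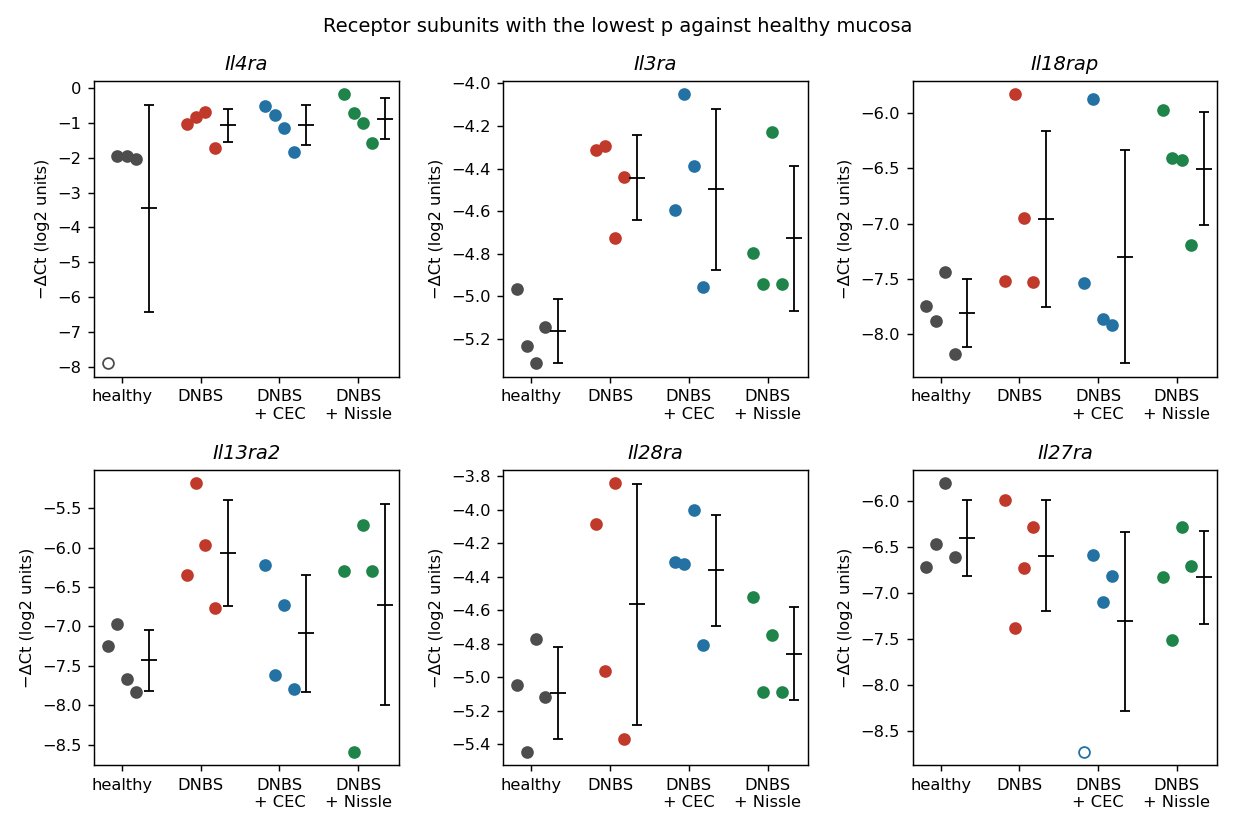
Level (−ΔCt, log2 units, vertical axis, scaled separately for each gene) of 6 receptor subunits in every sample by group; each point is 1 sample, open points are samples with a Ct above 28, and bars give the mean ± SD of 4 samples. Il4ra and Il3ra are higher in all 12 DNBS samples than in healthy samples, and the open healthy point of Il4ra at −7.88 is the well without amplification.

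The single comparisons with healthy followed the same few genes. They share the healthy samples with each other and with the broad comparison, so they are not separate evidence. In DNBS against healthy, 15 of 19 members were higher (78.9%, median 0.34), as were 59.7% of all 457 genes (median 0.12). By limma 0 of 19 passed the adjusted p, against 1 of 457 genes (0.219%). At an unadjusted p under 0.05 there were 3 of 19, Il3ra, Il13ra2 and Il4ra, against 45 of 457 genes (9.85%). The same 3 members did not overlap between groups, against 39 of 457 genes (8.53%). Il3ra differed by 0.72 ± 0.28, Il13ra2 by 1.36 ± 0.56 and Il4ra by 2.37 ± 0.97 log2 units (± SE, limma adjusted p = 0.332 for each), and Il4ra by 0.90 ± 0.40 with the blank well missing. With the global mean as reference 10 of 19 members were higher instead of 15, as the median of all genes moved by −0.23. Of all genes, 38.7% were higher with that reference.

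In DNBS_CEC against healthy, 13 of 19 members (68.4%) were higher, with a median of 0.21, against 57.2% and 0.07 over all genes. With the 11 reference genes this became 9 of 19 and a median of −0.02, while the median of all genes moved by −0.23. Of all genes, 33.6% were then higher. By limma 0 of 19 members and 0 of 458 genes (0%) passed the adjusted p. At an unadjusted p under 0.05 there were 2 members, Il4ra (2.38 ± 0.97, or 0.90 ± 0.40 with the blank well missing) and Il3ra (0.67 ± 0.28), against 25 of 458 genes (5.46%). With the 11 reference genes neither stayed under it (limma unadjusted p = 0.058 for Il4ra and 0.106 for Il3ra). Il27ra, which was lower, then did, at −1.14 ± 0.47 (unadjusted p = 0.0266, adjusted p = 0.637). The undetected DNBS_CEC sample 1 entered that value. Over the 13 reference genes Il27ra differed by −0.91 ± 0.46, and by −0.43 ± 0.40 with that sample missing. With all 13 reference genes Il4ra and Il3ra were also the 2 without overlap, against 15 genes (3.28%). Il28ra came next at 0.73 ± 0.35 (limma adjusted p = 0.875).

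In DNBS_Nissle against healthy, 13 of 19 members (68.4%) were higher, with a median of 0.19, against 41.8% and −0.10 over all genes. By limma 0 of 19 members passed the adjusted p, against 10 of 457 genes (2.19%). At an unadjusted p under 0.05 there were 2 members, Il18rap (1.31 ± 0.48, or 2.48-fold, limma adjusted p = 0.193) and Il4ra (2.57 ± 0.97, adjusted p = 0.205, or 1.10 ± 0.40 with the blank well missing), against 75 of 457 genes (16.4%). Il18rap, Il4ra and Il3ra did not overlap between groups, against 63 of 457 genes (13.8%). For Il3ra the difference was 0.44 ± 0.28 (limma adjusted p = 0.464).

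The oral treatments were compared with oral PBS and with each other under DNBS. In DNBS_CEC against DNBS, 8 of 19 members were higher (42.1%, median −0.04), as were 40.1% of all 474 genes (median −0.11). By limma 0 of 19 members and 0 of 474 genes (0%) passed the adjusted p, and 0 members and 8 genes (1.69%) had an unadjusted p under 0.05. The lowest p belonged to Il13ra2, at −1.02 ± 0.56 (95% interval −2.21 to 0.17, limma adjusted p = 0.992), then Il27ra at −0.71 ± 0.46 and Il13ra1 at 0.26 ± 0.27. With the 11 reference genes Il13ra2 was at −1.17 ± 0.50 (unadjusted p = 0.035, adjusted p = 0.849). For Il27ra the difference was −0.24 ± 0.40 once the undetected DNBS_CEC sample 1 was treated as missing.

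Il13ra1 is the chain that signals for IL-13 together with Il4ra. Healthy samples read −0.08, −0.48, −0.42 and −0.89, and DNBS samples −0.06, −0.73, −0.21 and −0.34. DNBS_CEC samples read −0.14, −0.04, 0.11 and −0.25, and DNBS_Nissle samples 0.02, −0.34, 0.10 and −0.44. It varied least of the 19 members within groups, with an SD of 0.27, and all groups overlapped. Its 2 assays correlated at r = 0.65 over the 16 samples.

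In DNBS_Nissle against DNBS, 8 of 19 members were higher (42.1%, median −0.23), as were 31.9% of all 474 genes (median −0.18). By limma 0 of 19 members and 0 of 474 genes (0%) passed the adjusted p, and 0 members and 7 genes (1.48%) had an unadjusted p under 0.05. Il6ra led at −0.54 ± 0.38 (95% interval −1.34 to 0.27), followed by Il8ra at −0.98 ± 0.83 and Il13ra2 at −0.66 ± 0.56 (limma adjusted p = 0.977 for each). Single samples weighed heavily on all 3. Il6ra was at −0.19 without DNBS_Nissle sample 7, Il8ra at −0.27 without DNBS_Nissle sample 1 and Il13ra2 at −0.034 without DNBS_Nissle sample 4. The far ends with single samples left out were −0.79, −1.62 and −0.99.

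Il6ra, the IL-6 binding chain that signals through Il6st, read −5.40, −5.47, −5.38 and −5.30 in healthy samples, a spread of 0.07 (SD). DNBS samples read −4.82, −4.75, −4.27 and −5.53, DNBS_CEC samples −4.99, −4.55, −5.05 and −5.49, and DNBS_Nissle samples −5.43, −4.64, −5.03 and −6.42. In each DNBS group 1 sample fell below the healthy range and most others lay above it. Il8ra, which binds neutrophil-attracting chemokines, read −4.86, −5.35, −7.47 and −5.27 in healthy samples and −5.20, −5.72, −4.44 and −6.23 under DNBS. DNBS_CEC samples read −5.54, −6.63, −5.82 and −5.81, and DNBS_Nissle samples −8.50, −4.65, −4.47 and −7.89. The DNBS_Nissle samples fell into a high pair and a low pair, and the groups overlapped throughout.

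In DNBS_CEC against DNBS_Nissle, 9 of 19 members were higher (47.4%, median −0.03), as were 64.1% of all 471 genes (median 0.15). By limma 0 of 19 members and 0 of 471 genes (0%) passed the adjusted p, and 0 members and 22 genes (4.67%) had an unadjusted p under 0.05. Il18rap differed by −0.80 ± 0.48, Il28ra by 0.50 ± 0.35 and Il27ra by −0.48 ± 0.46 (limma adjusted p = 0.974 for each). For Il27ra nearly all of that came from the undetected DNBS_CEC sample 1, since the difference was −0.0049 ± 0.40 with it missing.

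**Figure D3:**
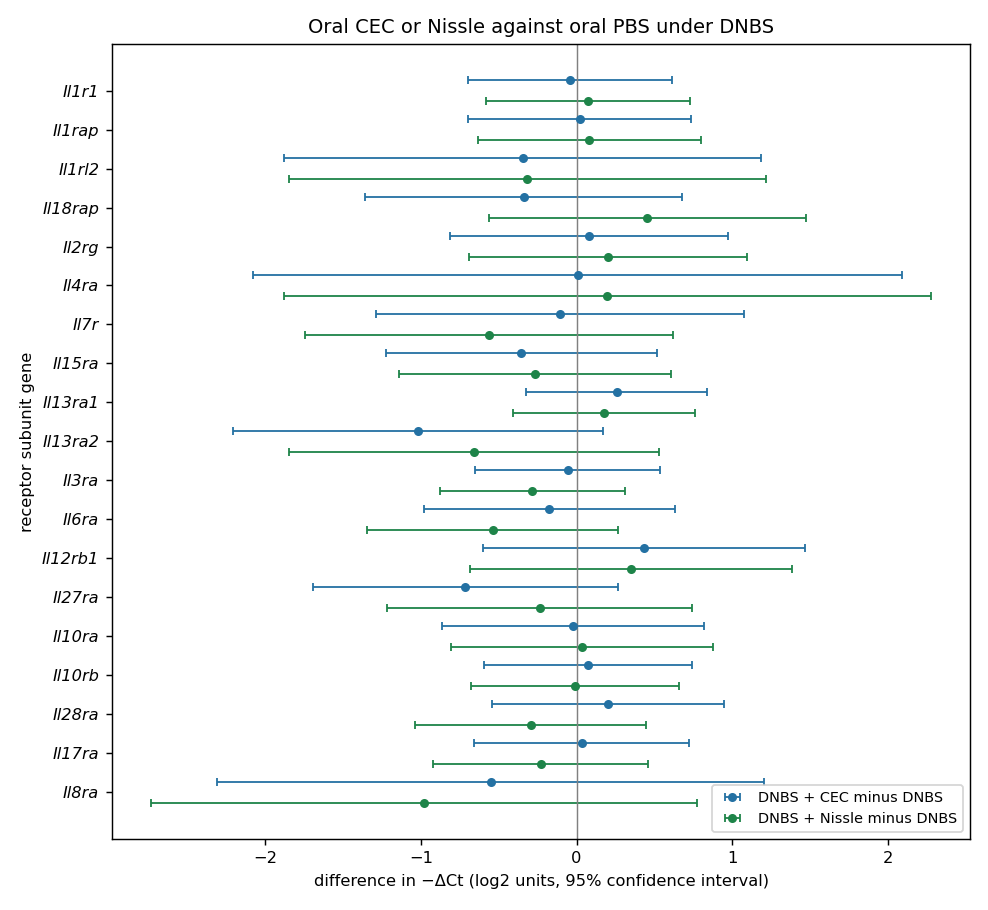
Difference in −ΔCt (log2 units, horizontal axis) of the 19 receptor subunits between DNBS_CEC and DNBS (blue) and between DNBS_Nissle and DNBS (green), with 95% confidence intervals from limma. All intervals include 0, and the DNBS samples enter both comparisons.

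The members not yet described are given by receptor family, with differences for the 3 DNBS groups against healthy in log2 units (± SE). In the TIR family, Il1r1, the signalling IL-1 receptor, differed by 0.13 ± 0.25 and its accessory chain Il1rap by −0.07 ± 0.28. Il1rl2, the IL-36 receptor, differed by −0.24 ± 0.58. Levels of Il1r1 lay between −2.61 and −1.48 over the 16 samples and those of Il1rap between −4.68 and −3.50, whereas Il1rl2 ranged from −8.06 to −4.64. Il1r1 and Il1rl2 are neighbours on mouse chromosome 1, with no coding gene between them in RefSeq (GRCm38.p6), and Il18rap lies 2 coding genes further on, past Il1rl1 and Il18r1.

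Among chains of the common gamma family, Il2rg, the shared chain itself, differed by 0.22 ± 0.34 and Il15ra, which presents IL-15, by 0.33 ± 0.33. Il7r, the IL-7 receptor chain of lymphocytes, differed by −0.13 ± 0.45. The range was −4.03 to −2.07 for Il2rg, −5.33 to −3.09 for Il15ra and −8.79 to −5.29 for Il7r. The lowest of the Il7r values was DNBS_Nissle sample 4, which was also lowest in Il13ra2.

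Among class II chains, Il10ra, the IL-10 binding chain, differed by 0.36 ± 0.32 and Il10rb, shared by IL-10, IL-22 and the lambda interferons, by 0.06 ± 0.26. The sign of Il10rb turned with the 11 reference genes (−0.04), the global mean (−0.06) and quantile normalization (−0.12). Il17ra, the common chain for IL-17 cytokines, differed by 0.33 ± 0.27, with levels from −3.02 to −1.84. Il12rb1, the chain shared by the receptors for IL-12 and IL-23, differed by −0.22 ± 0.40, and was not detected in DNBS_CEC sample 1 (Ct 29.9). With that sample missing the difference was −0.10 ± 0.37.

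The other 4 members were at or beyond the detection limit. Il5ra, the IL-5 receptor chain known from eosinophils, was singled out after its values were seen. Healthy samples gave Ct 30.6, 28.6, 30.7 and 30.0, none of them detected. DNBS samples gave 28.7, 25.4, 29.0 and 27.5, DNBS_CEC samples 24.8, 27.7, 29.6 and 28.8, and DNBS_Nissle samples 27.01, 28.2, 28.1 and 26.4. Detection thus came to 0 of 4 healthy samples and 2 of 4 in each DNBS group, 6 of 12 together. Among these Ct values, healthy sample 6 (30.0) and DNBS_CEC sample 2 (27.7) matched the average of the other samples in their group. Whether DNBS_CEC sample 2, counted here as detected, was measured is therefore uncertain. The rule for a test of detection asked for at least 3 of 4 against at most 1 of 4, which no member met, so none was tested. Of 4 mast cell and eosinophil markers tested over the 3 DNBS groups against healthy, 0 were higher. Ccr3 differed by −0.73 ± 0.83, and Prg2 was detected in all 16 samples. The part of eosinophils in the Il5ra pattern was not tested.

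Il23r, the private chain for IL-23, was detected in 1 healthy, 1 DNBS, 0 DNBS_CEC and 1 DNBS_Nissle sample, with Ct between 27.4 and 30.6. Il31ra, the IL-31 receptor chain, had a Ct below 40 in all 16 samples without reaching the limit, at 28.3 to 31.1. However, 4 of these values matched the average of the other samples in their group, so amplification in those samples is uncertain. Il1rapl2, a member of the IL-1 receptor family known from the nervous system, gave no amplification in any sample (Ct 40).

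**Figure D4:**
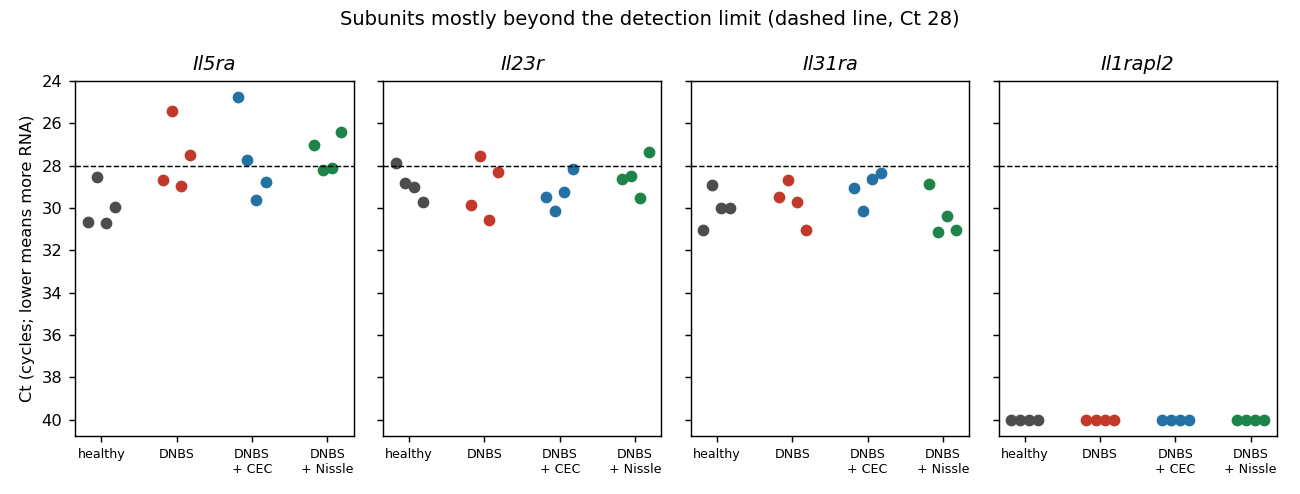
Ct (cycles, vertical axis turned so that more RNA is higher) of the 4 receptor subunits mostly beyond the detection limit of 28 (dashed line); each point is 1 sample. Il5ra crosses the limit in 6 of 12 DNBS samples and in 0 of 4 healthy samples, and Il1rapl2 is at 40 throughout. The crossing of Il5ra in DNBS_CEC sample 2 and 4 of the Il31ra points match the average of the other samples in their group.

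The ligands of these receptors were mostly below detection. Of 32 interleukin ligands on the panel, 11 were detected in no sample, among them Il4, Il13, Il3, Il5 and Il10, the ligands of Il4ra, Il13ra2, Il3ra, Il5ra and Il10ra. Only 6 were detected widely enough to be tested over the 3 DNBS groups against healthy. Il1b, the inflammatory ligand of Il1r1, rose by 3.45 ± 0.84 log2 units, or 10.9-fold (limma adjusted p = 0.0392), and none of the other 5 passed. That call was lost in 9 of 16 fits with 1 sample left out (each healthy sample, DNBS 4, DNBS_CEC 1 and 2, DNBS_Nissle 1 and 5), where Il1b stayed between 3.06 and 3.86 over the 16 fits. It was also lost with the 11 reference genes (adjusted p = 0.0584). Il15, the ligand of Il15ra, differed by −1.02 ± 0.29 (limma adjusted p = 0.0881), in the opposite direction to Il15ra, which did not pass either. Il6 was detected in 1 of 4 healthy and 12 of 12 DNBS samples, Il1f9, the IL-36 gamma ligand of Il1rl2, in 0 of 4 and 9 of 12, and Il17a, a ligand of Il17ra, in 0 of 4 and 7 of 12. Over the 6 ligands the median difference was 0.22.

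Partner chains, antagonists and signalling proteins of the receptors numbered 26 on the panel, of which 25 were tested and 0 passed by limma, with 3 at an unadjusted p under 0.05. In this list 17 were higher and the median was 0.17. The 2 lowest p were both for lower genes: Il22ra2, the soluble decoy for IL-22, at −1.57 ± 0.41 (limma adjusted p = 0.0651), and Il17rb, the IL-25 receptor chain, at −1.20 ± 0.43 (adjusted p = 0.223).

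Receptor and ligand levels were compared over the 12 DNBS samples in 8 pairs whose ligand was detected in at least 9 of them. All 8 Pearson coefficients were positive, from 0.15 to 0.71, and none passed by permutation test after adjustment over the 8 pairs, while 2 passed by Spearman's rho. Il1r1 followed Il1a with r = 0.71 (permutation p = 0.0107, adjusted p = 0.0858) and rho = 0.73 (permutation p = 0.0100, adjusted p = 0.0401). Without the 2 samples farthest from the median of Il1a, DNBS 3 and DNBS_Nissle 5, r was 0.74, and with the global mean as reference it was 0.54. In DNBS_CEC sample 6 Il1a was not detected, so its level there (−8.28) was set by the detection limit and the reference Ct. Il15ra followed Il15 with r = 0.64 (permutation p = 0.0245, adjusted p = 0.0980) and rho = 0.73 (permutation p = 0.00891, adjusted p = 0.0401). There r was 0.71 without 2 samples and 0.62 with the global mean. The Il15ra value of DNBS_Nissle sample 1 matched the average of the other samples in its group. Whether that value was measured is therefore uncertain. The weight of these single values in the coefficients was not tested. Over the 8 pairs r ran from 0.04 (Il1rap with Il1a) to 0.74 without 2 samples. With the global mean it ran from 0.07 (Il6ra with Il6) to 0.62. The 8 pairs drew on 6 receptors and 6 ligands, so they were not separate observations. Both genes of a pair share the reference Ct and the RNA of their sample, and the part of that in the coefficients was not tested.

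**Figure D5:**
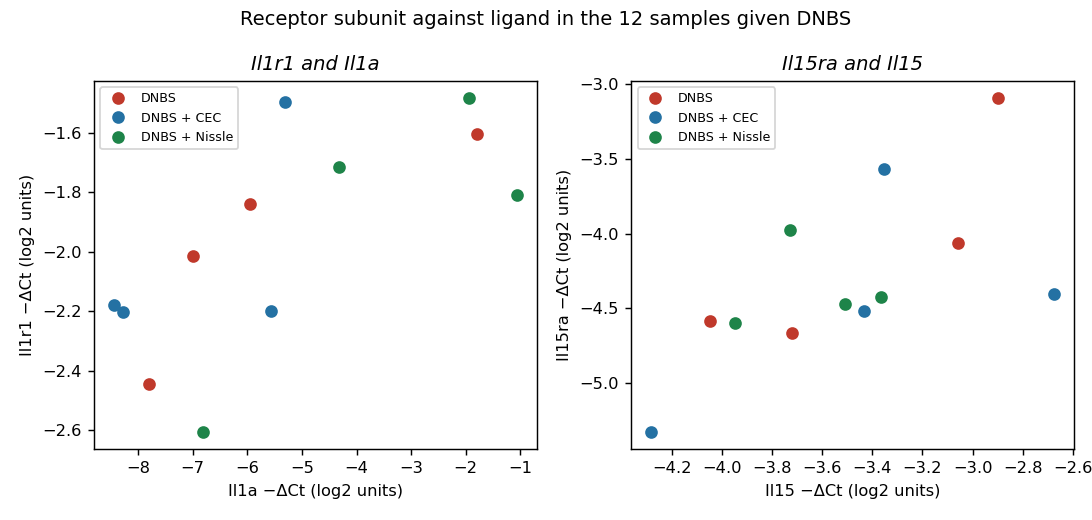
Level of the receptor subunit (vertical axis) against that of its ligand (horizontal axis), both as −ΔCt in log2 units, for Il1r1 with Il1a and for Il15ra with Il15; each point is 1 of the 12 samples given DNBS, coloured by group. Both plots rise from left to right, with r = 0.71 and r = 0.64. Il1a was not detected in DNBS_CEC sample 6. The Il15ra value of DNBS_Nissle sample 1 matched the average of the other samples in its group.

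Markers of other cells were read in the same comparison. Of 6 neutrophil markers on the panel 4 were tested, and all 4 rose, with S100a9 at 6.01 ± 1.16 and S100a8 at 6.33 ± 1.23 log2 units (limma adjusted p = 0.0106 for each). Without healthy sample 3 or healthy sample 5 neither passed (adjusted p = 0.0708 and 0.0566 for both), at differences of 5.55 to 6.01. The other marker calls, Ltf and Il8rb, were lost without any 1 of the healthy samples. The mean level of the 4 lay between −7.15 and −6.12 in healthy and between −6.06 and 1.49 in DNBS samples. Of 6 monocyte and macrophage markers 0 passed by limma (2 at an unadjusted p under 0.05), with a median of 0.36 and a mean level of −3.91 to −2.93 in healthy and −4.23 to −1.16 in DNBS samples. In that list only 4 of 6 were higher, and the 2 named by lowest p were Chi3l3 at 4.24 ± 1.14 and Itgam at 1.41 ± 0.64. Of 4 T cell markers 0 passed (0 at an unadjusted p under 0.05), with a median of 0.00, Cd28 at −0.86 ± 0.52 and Ctla4 at 0.56 ± 0.35. The single B cell marker Cd180 differed by −0.46 ± 0.38.

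Of 5 mast cell and eosinophil markers 4 were tested and 0 passed (0 at an unadjusted p under 0.05), with a median of −0.46 and Kit at −0.71 ± 0.39, while Fcer1a was detected in 1 of 16 samples. Of 6 adipocyte markers 5 were tested and 0 passed (2 at an unadjusted p under 0.05), with a median of −1.24, Adipoq at −1.59 ± 0.68 and Retn at −1.40 ± 0.62. The endothelial marker Selp differed by 2.03 ± 0.58 (limma adjusted p = 0.0884), and Krt8 by −0.15 ± 0.54. No stromal marker of the list was matched on the panel. The part of changed cell numbers in the receptor differences was not tested.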

How the data were processed

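The authors deposited raw Ct values, the only unit used (classed as other), 1 column per sample; the file header calls the table a truncated example. The software that set the thresholds was not given in the sources used here. Of the Ct values, 194 (1.87%) matched, within 2e-06, the average of the remaining samples in the same group. Healthy sample 3 held 57 of them, DNBS_Nissle sample 1 held 61, and each other sample held 1 to 12. The receptor subunit assays held 9, among 400 values. At most 4 decimals were given for 532 values. Both kinds were kept, and were left out as alternatives. The molecules behind a Ct are unknown, so no counting interval was computed. Assays of a gene were averaged where equally detected. A gene was tested when detected (Ct at most 28) in at least 3 of 4 samples of each group compared, and endogenous controls were not tested, which was decided after the table was seen. Differences were fitted with limma 3.58.1 in R 4.3.3 (lmFit, eBayes), in 1 model of 4 group means over 16 samples, with Benjamini-Hochberg adjustment over all genes of a comparison. Permutation tests used 1e+05 resamples in SciPy 1.17.1; the detection rule for ligands was also added after the table was seen. All 16 values are given for the 3 members with the lowest p in each comparison, and the 2 genes with the lowest p of each list are named. All 23 symbols matched RefSeq (GRCm38.p6). The members and lists were chosen with earlier results of these data known. Same-numbered samples did not regularly deviate together (r from −0.49 to 0.37 over 10 pairs, 4 of them above 0.1), so numbers were not used to pair. With so few pairs this does not show that the samples were unpaired. Scripts were tested on simulated data.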

Additional observations from a re-analysis of the deposited data

Results flagged for a closer look

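Among 76 sets of 4 samples (19 members in 4 groups), 4 held a sample that stood apart from the other 3 by Dixon's criterion, and chance gives about 1 in 20. In Il4ra, healthy sample 3 was at −7.88 on the −ΔCt scale because its well did not amplify, with the others between −2.03 and −1.95. In Il1r1, healthy sample 4 was at −1.91 with the others between −2.17 and −2.15, and DNBS_CEC sample 1 at −1.50 with the others between −2.20 and −2.18. In Il1rl2, DNBS sample 2 was at −4.64 with the others between −6.20 and −5.99.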

How the results depend on the processing

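No member passed in any of the 7 comparisons under any of 176 alternative fits of the counts. Of 1547 alternative values over 67 results, 1527 kept their direction and their side of the threshold, or for a value without a test their size, 19 changed sign and 1 moved. The median of the members in DNBS_CEC against DNBS_Nissle moved to −0.38 with Gapdh alone as reference. In DNBS against healthy, Il27ra turned to 0.0055 without values of few decimals, with −0.3947 to 0.0697 when single samples were left out. In the 3 DNBS groups against healthy, Il10rb turned to −0.0366 without Ywhaz and Rplp2, −0.0576 with the global mean and −0.12 with quantile normalization, which also turned Il1r1 to −0.13. There the sample numbers as a replicate block turned Il1rap to 0.0383 and Il8ra to 0.56, and leaving out healthy 3 and DNBS_Nissle 1 together turned Il1rl2 to 0.0204 and Il8ra to 0.36. With single samples left out the ranges were −0.0305 to 0.24 for Il10rb, −0.14 to 0.0314 for Il1rap, −0.55 to 0.11 for Il1rl2, −0.24 to 0.0894 for Il7r and −0.75 to 0.12 for Il8ra. The block also turned Il8ra in DNBS_Nissle against DNBS to 0.0124. The cause was not tested. Il1b and the 4 neutrophil markers, which passed in the broad comparison, all missed the threshold under the block (adjusted p from 0.0731 to 0.182) and without healthy 3 and DNBS_Nissle 1 (0.108 to 0.224), with differences still above 0. These values cover every member in the broad comparison and the members named in the others. The set followed one by one was narrowed after sign changes had been seen between DNBS groups. Among all 19 members, the largest reported difference to change sign was 0.55 in size in DNBS_CEC against DNBS. It was 0.98 in DNBS_Nissle against DNBS and 0.45 in DNBS_CEC against DNBS_Nissle. Over all 19 members in all comparisons, 265 of 3288 alternative values had another sign than the reported one, 152 of 1344 (11.3%) between DNBS groups. The numbers were not used to pair the samples in the main fit. Under the block 0 members passed in each comparison. Of all genes, 2, 0 and 0 passed with it in DNBS, DNBS_Nissle and the 3 DNBS groups against healthy, where 1, 10 and 9 passed without it. Those overall counts also ran from 0 to 7, 0 to 20 and 0 to 14 over the other alternatives, DNBS_CEC against healthy gave at most 1, and DNBS against healthy gave 5 with a Ct above 28 as missing. With the limit at 26, at 28 or at 40, Il4ra in the broad comparison was at 1.94, 2.44 and 5.44, a size that depended on the blank well. With that well missing it was at 0.97.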
